A study of Mus musculus with 18 samples.

Results

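A set of 11 known piRNAs was examined whose mean level in control sperm was highest in the F0 generation, among 36,051 known piRNAs listed in any library. The 11 were chosen on the control libraries: a mean under 20 TPM (reads per 1,000,000 reads of the library) over all 9, an F0 control mean of at least 2 TPM, and an F0 control mean at least 4 times that of both F1 and F2 controls. Their high values in F0 Con and low values in F1 Con and F2 Con are therefore a description of the choice and carry no test. Libraries of the exposed line had no part in the choice.

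piRNAs are small RNAs bound by PIWI proteins, which are made in the germline. In mouse testis, fetal and early postnatal piRNAs guide the silencing of transposons, while the abundant pachytene piRNAs of spermatocytes and round spermatids come from long precursor transcripts of dedicated loci. Most are lost as spermatids mature, and sperm carry the remainder beside miRNAs and tRNA fragments. The sources used here give the 11 by name only, so neither a locus, a target nor a function can be stated for any of them.

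The libraries came from sperm of ICR mice, an outbred strain, with 3 replicates in each of 6 groups. F0 NHS males were exposed to the irritant gases NH3 (ammonia) and H2S (hydrogen sulphide) from 3 weeks of age over a period of 5 weeks. F0 Con males were their untreated controls. F1 NHS and F2 NHS males were untreated descendants of F0 NHS males through fathers mated with normal females, with F1 Con and F2 Con as controls. F1 males were mated at 8 weeks of age. The labels state neither gas doses nor whether replicates were separate animals, so the p-values cover only library-to-library spread, part of which may be technical. Complete lists of known piRNAs were at hand for F0 NHS, F0 Con, F1 Con and F2 Con (3 libraries each) and for F2 NHS replicate 1, 13 libraries in all. The remaining 5 lists, all of F1 NHS or F2 NHS, end early.

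Library totals ranged from 17,224,472 to 29,430,555 reads, so 1 TPM rests on 17.2 to 29.4 reads. As a check of the sperm label, male germ cell miRNAs (miR-34b, miR-34c, miR-449a and miR-449c) summed to 6786 to 18,656 TPM in F0 NHS and 4017 to 7881 TPM in F0 Con. In F1 Con and F2 Con they summed to 12,751 to 22,170 TPM. Smooth muscle miRNAs (miR-143 and miR-145a) summed to 47,153 to 119,136 TPM in F0 NHS and 62,659 to 169,501 TPM in F0 Con, and to 5927 to 29,705 TPM in F1 Con and F2 Con. Red blood cell miRNAs (miR-451a and miR-144) reached 68,810 and 77,021 TPM in F0 Con replicates 1 and 3, against 10,022 TPM in F0 Con replicate 2, and ranged from 19,842 to 35,425 TPM in F0 NHS. Epithelial miRNAs (miR-200a, miR-200b, miR-200c, miR-141 and miR-429) summed to 12,004 to 25,546 TPM in F0 NHS and 20,361 to 28,681 TPM in F0 Con, against 4628 to 19,796 TPM in F1 Con and F2 Con. Leukocyte miRNAs (miR-223, miR-142a and miR-150) summed to 415 to 924 TPM in F0 NHS and 455 to 1950 TPM in F0 Con, and to 533 to 2738 TPM in F1 Con and F2 Con. miR-449c was near 0, with 1.57 TPM at most. The lowest germ cell sum and the 2 highest red blood cell sums were thus those of F0 Con libraries, and the part of these differences in the levels below was not tested. In bulk sperm samples fewer cells of a type and less RNA per cell cannot be told apart.

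The 11 piRNAs were lower in F0 NHS than in F0 Con, but they were chosen for high F0 Con values, so this gap was not tested. Their summed level was 13.7, 21.2 and 16.4 TPM in F0 NHS, against 62.6, 64.3 and 176.8 TPM in F0 Con. It was 10.1, 15.02 and 33.2 TPM in F1 Con and 16.5, 9.16 and 13.5 TPM in F2 Con, and 13.2 TPM in F2 NHS replicate 1. The F0 NHS sums lay within the range of F1 Con and F2 Con. The lowest F0 Con sum was 1.88 times the highest sum of the 10 other complete libraries, that of F1 Con replicate 3. The rule used both sides of that gap, so it describes the choice and carries no test. Within F0 Con, replicate 3 stood apart. Relative to F0 Con, the F0 NHS mean of the sum was 16.9%, and 26.9% without F0 Con replicate 3.

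**Figure D1:**
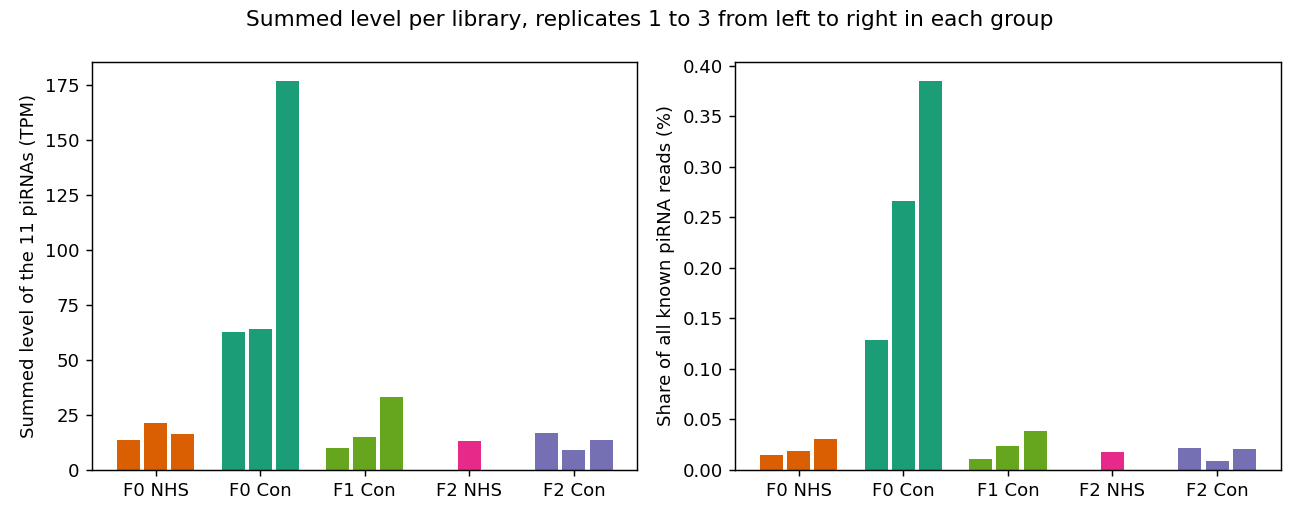
Summed level of the 11 piRNAs in TPM (left) and their share of all known piRNA reads in percent (right), 1 bar per library, with replicates 1 to 3 from left to right and 1 bar for F2 NHS. On the left the 3 F0 Con bars reach 62.6 to 176.8 TPM and no other bar exceeds 33.2 TPM.

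Known piRNAs as a class ran the other way. They took 9.33%, 11.5% and 5.45% of reads in F0 NHS, against 4.89%, 2.42% and 4.60% in F0 Con. Their share was 6.39% to 9.97% in F1 Con, 6.52% to 11.2% in F2 Con and 7.49% in F2 NHS replicate 1. Within known piRNA reads, the 11 made up 0.0147%, 0.0184% and 0.0301% in F0 NHS, against 0.128%, 0.266% and 0.384% in F0 Con, so the F0 NHS mean was 8.12% of the F0 Con mean.

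Member by member, the F0 NHS mean was below the F0 Con mean for 11 of 11, between 10.4% and 32.7% of it, with a median of 16.5%. In 7 of 11 it was 25% or less, and in 0 of 11 it was 50% or more. Among the 1237 known piRNAs with a control mean under 20 TPM and an F0 Con mean of at least 2 TPM, the median was 97.9%, and 3.48% of them were at 25% or less. Because the F0 Con values chose the members, these gaps are not tested. Without F0 Con replicate 3 the members' median was 31.0%, and 3 of 11 were at 25% or less and 3 at 50% or more. Compared with the mean of the 6 F1 Con and F2 Con libraries, the F0 NHS mean was higher for 7 members and lower for 4.

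For 5 members all libraries of F0 NHS, F1 Con and F2 Con lay below all 3 F0 Con libraries. With each group taken alone, this held in 5 of 11 members for F0 NHS, 6 for F1 Con and 8 for F2 Con. Over the 6463 known piRNAs with at least 1 TPM in at least 3 libraries, it held in 1.73%, 0.836% and 1.72%. The share with all 3 groups at once was not computed. The rule used F0 Con on one side of each, so nothing is read from the excess.

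The most abundant of these 5 was mmu_piR_006156, with 2.16, 3.02 and 4.87 TPM in F0 NHS, against 9.84, 45.7 and 14.3 TPM in F0 Con. F1 Con held 2.81, 7.61 and 3.10 TPM and F2 Con 5.60, 3.54 and 5.36 TPM. Replicate 2 was its highest F0 Con library, the only member with that pattern. It was also the only one of the 4 members with an F0 Con mean above 10 TPM in which F0 Con did not overlap any other group of 3.

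mmu_piR_015141 had 0.14, 1.05 and 0 TPM in F0 NHS, against 4.39, 2.69 and 4.0 TPM in F0 Con. In F1 Con it stood at 0.63, 0.21 and 0.35 TPM and in F2 Con at 0.13, 0 and 0.38 TPM. Relative to their mean, 3.69 ± 0.891 TPM (SD, n = 3), its F0 Con libraries were the closest together of any member, with a coefficient of variation of 24.1%.

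mmu_piR_033716 stood at 0.32, 0.44 and 0.09 TPM in F0 NHS, against 2.74, 1.23 and 4.22 TPM in F0 Con, the lowest F0 NHS share of all members at 10.4%. In F1 Con it had 0.63, 0.42 and 0.82 TPM and in F2 Con 0.33, 0.06 and 0.65 TPM. The 3 F0 NHS values fell in the range of the later controls.

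In F0 NHS, mmu_piR_025444 had 1.04, 0 and 0.43 TPM, against 1.41, 1.75 and 4.06 TPM in F0 Con. It had 0.12, 0.21 and 0.51 TPM in F1 Con, and 1 read over the 3 F2 Con libraries (0, 0.06 and 0 TPM). mmu_piR_004562 was at 0.50, 0.75 and 0.47 TPM in F0 NHS, against 2.27, 1.13 and 2.78 TPM in F0 Con. Its F1 Con values were 0.20, 0.08 and 0.78 TPM and its F2 Con values 0.79, 0.06 and 0.11 TPM. Both thus kept a gap between F0 Con and all the others, of 0.37 TPM between the nearest libraries of mmu_piR_025444 and 0.34 TPM for mmu_piR_004562.

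**Figure D2:**
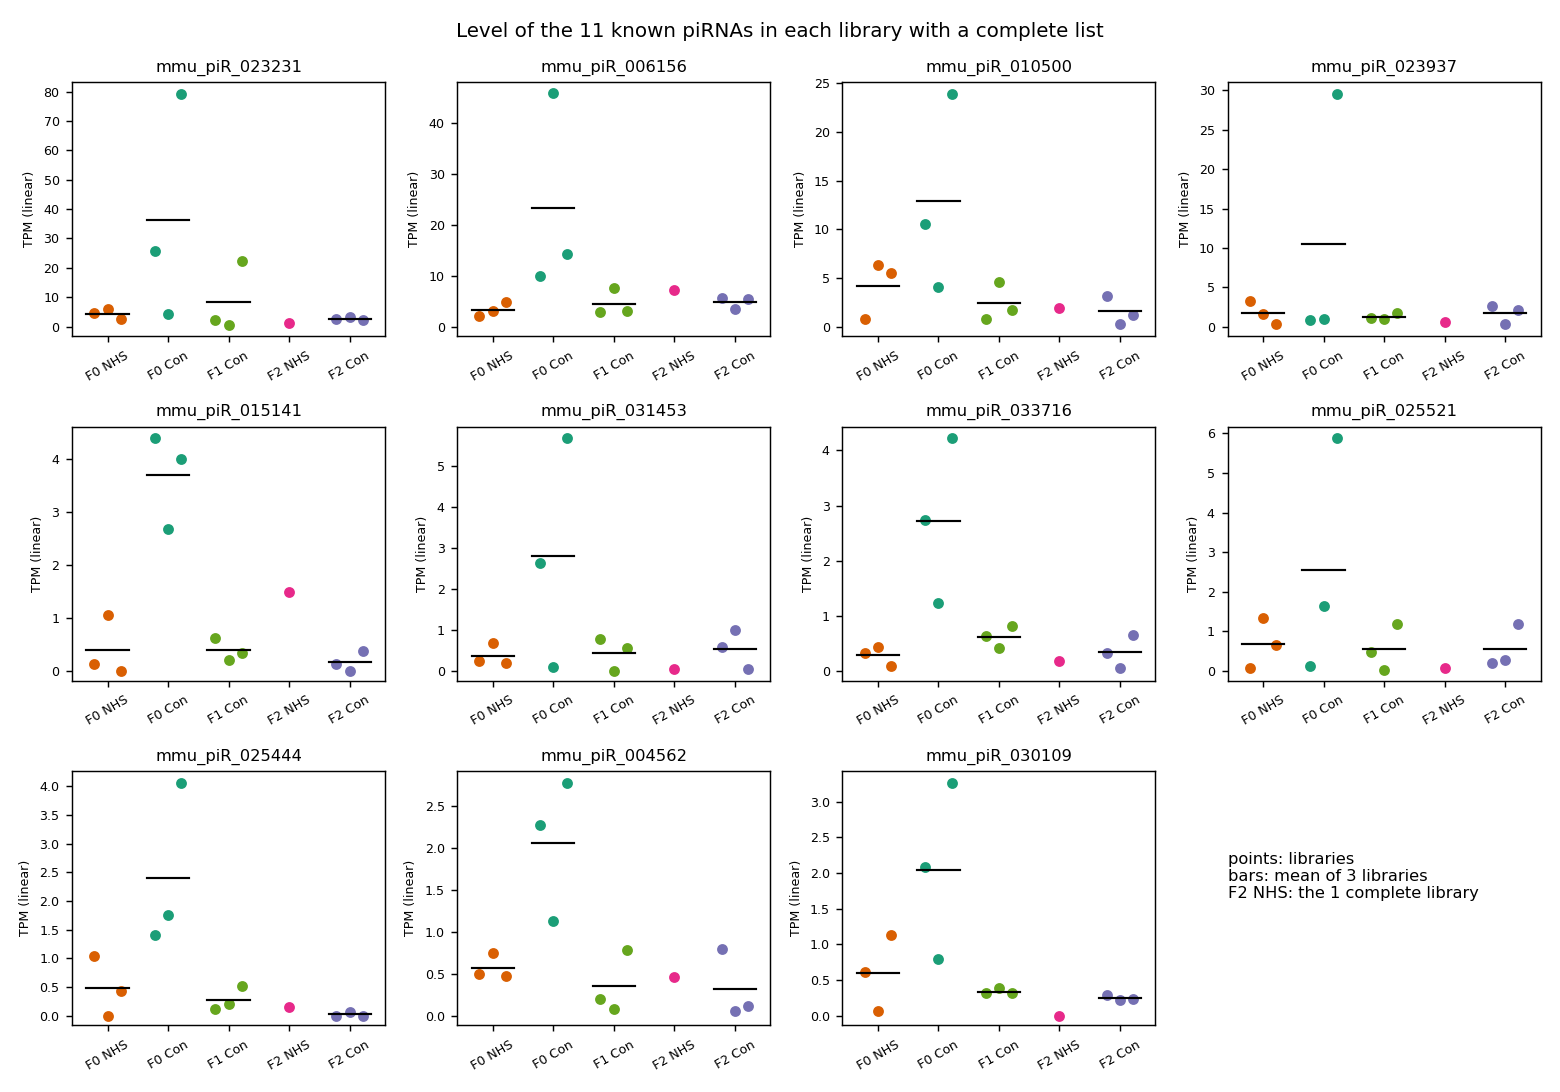
Level in TPM, on linear axes, of each of the 11 piRNAs in the 13 libraries with complete lists; points are libraries and bars are means of 3. F0 Con is spread widely in most panels, with its highest point in replicate 3 for 9 of 11, while the F0 NHS means are between 10.4% and 32.7% of the F0 Con means.

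The other 6 members overlapped F0 NHS in at least 1 F0 Con library. mmu_piR_023231, the most abundant of all, had 4.54, 5.95 and 2.74 TPM in F0 NHS, against 25.7, 4.16 and 79.2 TPM in F0 Con. It varied in F1 Con too, at 2.19, 0.51 and 22.2 TPM, and stood at 2.68, 3.38 and 2.18 TPM in F2 Con. F0 Con replicate 2 lay within its F0 NHS range, and F1 Con replicate 3 lay near F0 Con replicate 1.

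mmu_piR_010500 had 0.83, 6.29 and 5.48 TPM in F0 NHS, against 10.6, 4.06 and 23.9 TPM in F0 Con. Its later controls had lower means, with 0.82, 4.63 and 1.69 TPM in F1 Con and 3.18, 0.28 and 1.22 TPM in F2 Con. F1 Con replicate 2 lay above F0 Con replicate 2. The F0 NHS mean of mmu_piR_010500 was 32.7% of the F0 Con mean, the highest share of all members.

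For mmu_piR_030109, F0 NHS libraries held 0.61, 0.07 and 1.13 TPM, against 2.08, 0.80 and 3.26 TPM in F0 Con. F1 Con (0.31, 0.38 and 0.31 TPM) and F2 Con (0.29, 0.22 and 0.23 TPM) were tight and below every F0 Con library. Only F0 NHS replicate 3 overlapped F0 Con.

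In the remaining 3 members F0 Con overlapped all other groups of 3, and replicate 3 gave 67.5% to 94.2% of the F0 Con sum. Replicate 3 also gave most of that sum in mmu_piR_023231 (72.6%), mmu_piR_010500 (62.0%), mmu_piR_025444 (56.2%), mmu_piR_030109 (53.1%) and mmu_piR_033716 (51.5%). mmu_piR_023937 had 3.21, 1.63 and 0.33 TPM in F0 NHS, against 0.82, 0.99 and 29.6 TPM in F0 Con, where replicate 3 gave 94.2% of the sum. mmu_piR_025521 had 0.07, 1.33 and 0.66 TPM in F0 NHS, against 0.12, 1.65 and 5.87 TPM in F0 Con. mmu_piR_031453 had 0.25, 0.68 and 0.19 TPM in F0 NHS, against 2.63, 0.09 and 5.66 TPM in F0 Con. Over F1 Con and F2 Con these 3 ranged from 0.28 to 2.68, from 0.04 to 1.19 and from 0 to 1.0 TPM.

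The dependence on 1 library shows when the rule is applied to 8 of the 9 control libraries. Without F0 Con replicate 3, 4 known piRNAs met it, of which 2 were members, mmu_piR_006156 and mmu_piR_015141. Without F0 Con replicate 1 or 2, 19 and 23 met it, 10 members among each, and without F1 Con replicate 3, 24 met it, all 11 members included. Leaving out any other control library gave 10 to 12, with 8 to 10 members. mmu_piR_015141 alone met the rule without any 1 of the 9, and mmu_piR_025521 met it in the fewest, 5 of 9.

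**Figure D3:**
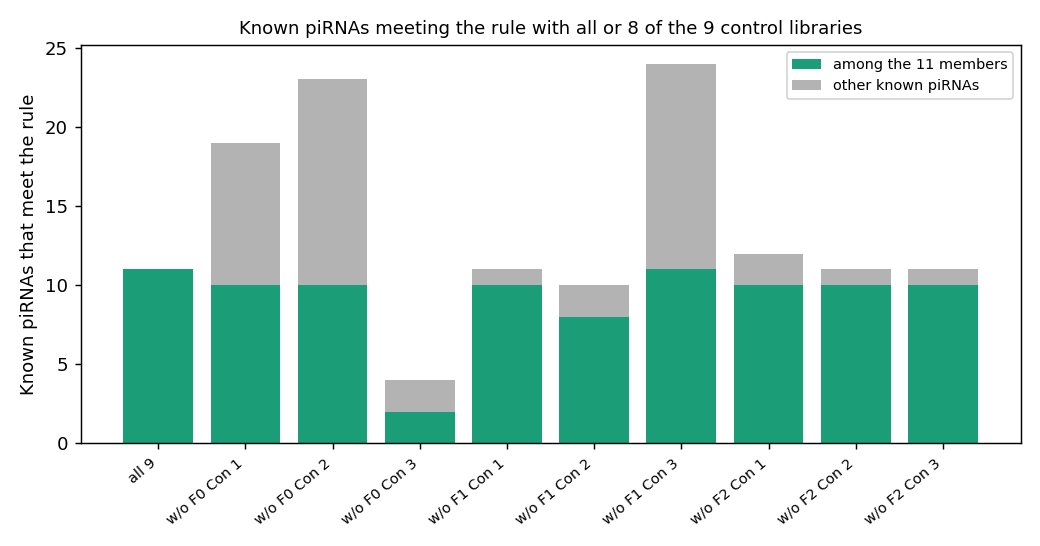
Number of known piRNAs that meet the rule with all 9 control libraries and without each in turn (without is written w/o), split into the 11 members and others. Leaving out F0 Con replicate 3 keeps 2 members, while leaving out any other library keeps 8 to 11.

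Near the limits of the rule, mmu_piR_023231 and mmu_piR_006156 were just inside the control mean of 20 TPM, at 15.8 and 10.9 TPM, and mmu_piR_000219 and mmu_piR_000619 just outside, at 34.7 and 47.1 TPM. For the F0 Con mean of 2 TPM, mmu_piR_030109 and mmu_piR_004562 were inside at 2.05 and 2.06 TPM, and mmu_piR_004193 and mmu_piR_025113 outside at 1.61 and 1.47 TPM. For the ratio of F0 Con to F1 Con, mmu_piR_033716 and mmu_piR_023231 were inside, each at 4.38, and mmu_piR_003435 and mmu_piR_024525 outside at 3.99 and 3.53. For the ratio to F2 Con, mmu_piR_025521 and mmu_piR_006156 were inside at 4.55 and 4.81, and mmu_piR_027044 and mmu_piR_029475 outside at 3.17 and 2.62.

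The exposed line gives the one comparison of generations made between libraries with no part in the choice, F2 NHS against F0 NHS, which asks whether the members were also lower in the later generation there. No member passed the test, 0 of 10 tested. edgeR called 0% of 6463 known piRNAs (722 at an unadjusted p under 0.05, or 11.2%), and DESeq2 called 29 of 6079, or 0.477%, with no member among them. The filter of at least 1 CPM (counts per 1,000,000 reads) in at least 3 libraries also counted control libraries, which chose the members. mmu_piR_033716 and mmu_piR_004562 passed it through F0 Con alone, and mmu_piR_025444, mmu_piR_015141 and mmu_piR_030109 would not have passed without F0 Con. The 10 tested, with 8 negative log2 fold changes and 2 positive ones, are thus not a set free of the choice. With a filter of at least 1 CPM in at least 2 libraries of F0 NHS and F2 NHS, 5 members were tested among 4110 known piRNAs, namely mmu_piR_023231, mmu_piR_006156, mmu_piR_010500, mmu_piR_023937 and mmu_piR_015141. Of these 5, 3 had a negative log2 fold change and 2 a positive one, and edgeR called none of them, nor any of the 4110 (0%, with 500 at an unadjusted p under 0.05). F0 NHS males were treated and F2 NHS males were not, so generation and direct exposure cannot be told apart here. The F2 side is 1 library, assumed to vary like the other groups. Markers of other cell types moved with this comparison, and their part in it was not tested. Smooth muscle miRNAs summed to 29,284 TPM in F2 NHS replicate 1 and red blood cell miRNAs to 13,999 TPM, both below all 3 F0 NHS libraries. Leukocyte miRNAs, at 928 TPM in that library, were just above the F0 NHS range, and its germ cell sum of 9829 TPM and epithelial sum of 14,838 TPM were within it.

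In F2 NHS replicate 1, mmu_piR_023231 had 1.16 TPM, below all F0 NHS libraries (log2 fold change -2.09, SE 1.39, edgeR adjusted p = 0.605). mmu_piR_006156 had 7.17 TPM (95% exact binomial interval 6.18 to 8.28 TPM), above all F0 NHS libraries (0.83, SE 1.17, edgeR adjusted p = 0.832). Also above all F0 NHS libraries was mmu_piR_015141, at 1.5 TPM (1.07 to 2.06; 1.68, SE 1.18, edgeR adjusted p = 0.616). Its log2 fold change was 4.17 without F0 NHS replicate 2, where it had 1.05 TPM (edgeR adjusted p = 0.501), and 1.16 without F0 NHS replicate 3, where it had 0 (edgeR adjusted p = 0.695). For mmu_piR_006156 the log2 fold change was 0.50 without F0 NHS replicate 1 and 1.39 without F0 NHS replicate 3. In the main fit these 2 went against the direction of the controls, in which F2 Con was the lower side by choice. A term for libraries high in novel_mir1, a predicted miRNA, was chosen after seeing the data. With it the log2 fold change was -0.30 for mmu_piR_006156 and 2.34 for mmu_piR_015141.

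mmu_piR_010500 stood at 1.89 TPM (-1.45, SE 1.42) and mmu_piR_023937 at 0.58 TPM (-1.63, SE 1.52), both within the F0 NHS range. mmu_piR_004562 stood at 0.46 TPM (-0.51, SE 1.19), just below the lowest F0 NHS library at 0.47 TPM. mmu_piR_033716, mmu_piR_025444, mmu_piR_025521, mmu_piR_031453 and mmu_piR_030109 had 5 reads or fewer in that library, at 0.19, 0.15, 0.08, 0.04 and 0 TPM. At this depth such values have wide intervals, 0.0626 to 0.450 TPM for the 5 reads of mmu_piR_033716. Fitted log2 fold changes were -0.73 (SE 1.0) for mmu_piR_033716, -1.72 (SE 1.53) for mmu_piR_025444 and -3.35 (SE 1.99) for mmu_piR_025521. mmu_piR_031453 was not tested, since it reached 1 TPM before rounding in only 2 of the complete libraries, F0 Con replicates 1 and 3.

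Over all members, F2 NHS replicate 1 was below every F0 NHS library for 4 of 11 and above every one for 2 of 11, against 25.6% and 33.5% of the 6463 known piRNAs tested. Set against F2 Con, it was above every library for 3 of 11 and below every library for 3 of 11, against 17.6% and 24.7% of those tested. The 4 below every F0 NHS library include mmu_piR_031453, which had 1 read and was not among those tested. They also include mmu_piR_004562 and mmu_piR_030109, which would not have passed the filter without F0 Con. The member counts and the shares thus rest on unlike sets. They also rest on small counts and were not compared by a test.

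**Figure D4:**
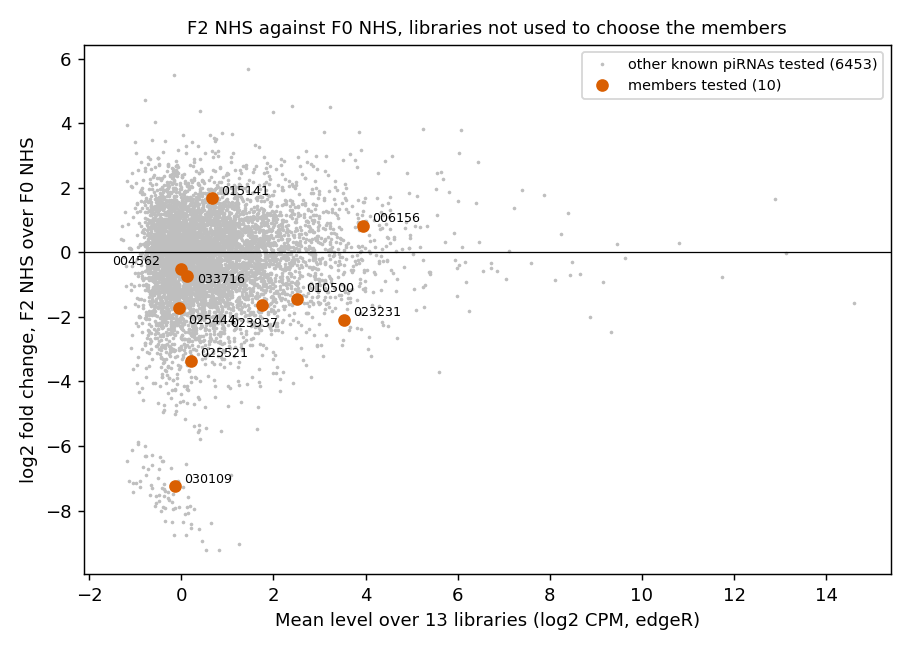
log2 fold change of F2 NHS over F0 NHS against mean level in log2 CPM for each known piRNA tested; orange points are the 10 members tested, labelled by the digits of their names, and grey points the other known piRNAs. Of the 5 members that passed a filter on NHS libraries alone, 3 lie below 0 and 2 above, and mmu_piR_030109 lies in the band of piRNAs without reads in F2 NHS.

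The largest fitted change was that of mmu_piR_030109 (log2 fold change -7.25, SE 2.25), with 0 reads in F2 NHS replicate 1. It passed the filter through F0 Con replicates 1 and 3 and F0 NHS replicate 3, so its fit is not free of the choice. A floor of 3 reads in F2 NHS replicate 1 is 0.116 TPM, and the F0 NHS mean of 0.603 TPM was 5.22 times that floor. Without F0 NHS replicate 3 that ratio was 2.94, and F0 NHS replicate 2, at 0.07 TPM, lay below the floor itself. The 95% exact binomial interval of the 0 reads reaches 0.142 TPM. The lists of F2 NHS replicates 2 and 3 reach this piRNA and held 1.93 and 0.96 TPM of it. With these included, and F1 NHS replicate 2, the log2 fold change was 0.01 (SE 0.93, edgeR adjusted p = 0.998, 581 early-listed known piRNAs tested, 0% called). The 3 F2 NHS libraries thus lay on both sides of the F0 NHS values, and the low value of replicate 1 did not recur in replicates 2 and 3.

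Lists that end early reach 6 of the 11 members in at least 1 library. mmu_piR_031453 had 0.04, 0.20 and 0.23 TPM in F2 NHS replicates 1, 2 and 3, against 0.25, 0.68 and 0.19 TPM in F0 NHS. mmu_piR_023231 had 1.16 and 2.21 TPM in F2 NHS replicates 1 and 2, both below all 3 F0 NHS libraries, and with both F2 libraries its log2 fold change was -1.80 (SE 1.0, edgeR adjusted p = 0.472). mmu_piR_023937 had 0.58 and 1.01 TPM in the same libraries, within the F0 NHS range (-1.40, SE 1.09, edgeR adjusted p = 0.605).

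In F1 NHS replicate 2, the only F1 NHS library that reaches any member, mmu_piR_010500 stood at 4.63 TPM, at the top of the F1 Con range. mmu_piR_023231 stood there at 0.14 TPM, below all 3 F1 Con libraries. mmu_piR_025521 was at 1.48 TPM, above all 3 F1 Con libraries, as was mmu_piR_030109 at 0.41 TPM. mmu_piR_023937 at 1.69 TPM and mmu_piR_031453 at 0.38 TPM lay within the F1 Con range. With 1 library there is no replicate check, and the members did not share a direction relative to F1 Con.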

How the data were processed

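Small RNA reads of 18 sperm libraries were analysed from the table the authors deposited, which lists small RNAs giving counts and TPM values. The deposited counts are whole read counts per the file headers and values. The deposited TPM is the count per 1,000,000 reads of the library, with no length term, checked in the values. The submitters' processing notes name build mm10, while aligner, counter and filters are not stated there.

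Lists share 1 order, within 6 places. An absent piRNA was set to 0 where a list reaches its place (margin 20 places). Library totals of lists that end early came from count over TPM. Counts were fitted with edgeR 4.0.16 under R 4.3.3 (TMM on library totals, quasi-likelihood F test, 1 model of group means, at least 1 CPM in at least 3 libraries, Benjamini-Hochberg over all known piRNAs tested, threshold 0.05, two-sided), with DESeq2 1.42.0 beside it. The edgeR script was tested on simulated data. Intervals and floors (3 reads) cover counting error only.

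The members, the tests and the lists were chosen with earlier results of these data known. Named are any called members, those highest in F0 NHS or F0 Con or lowest in F0 NHS relative to F0 Con, those nearest each limit and those listed early. Replicates correlated at r = 0.571 to 0.797 on log CPM, so no library was counted as a duplicate. Alternatives were other scalings and filters, NHS libraries alone, DESeq2, a replicate block and each library left out.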

Additional observations from a re-analysis of the deposited data

Results flagged for a closer look

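In 3 members NHS lay below Con in F0 and above Con in F2, in every library with a complete list. The rule chose high F0 Con and low F2 Con values, which favours this pattern. The difference between the generations was therefore not tested, and F2 NHS has 1 such library. Of the known piRNAs tested, F0 NHS libraries all lay below F0 Con in 1.73%. F2 NHS replicate 1 was above all 3 F2 Con libraries in 17.6% of them and below all 3 in 24.7%. The share with both patterns at once was not computed, so nothing is read from the count of 3 members.

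mmu_piR_006156 had 7.17 TPM in F2 NHS replicate 1, against 3.54 to 5.60 TPM in F2 Con, while in F0 it had 2.16 to 4.87 TPM in NHS, against 9.84 to 45.7 TPM in Con. mmu_piR_015141 had 1.5 TPM in F2 NHS replicate 1, against 0 to 0.38 TPM in F2 Con, and 0 to 1.05 TPM in F0 NHS, against 2.69 to 4.39 TPM in F0 Con. mmu_piR_025444 had 0.15 TPM, or 4 reads, in F2 NHS replicate 1, against 0 to 0.06 TPM in F2 Con, and 0 to 1.04 TPM in F0 NHS, against 1.41 to 4.06 TPM in F0 Con. novel_mir1, a predicted miRNA whose level separates the libraries in this series, was at 3282.5 TPM in F2 NHS replicate 1 and 2378 TPM in F0 NHS replicate 3, against 128 and 174 TPM in F0 NHS replicates 1 and 2. A fit of F2 NHS against F0 NHS with a term for libraries high in novel_mir1 gave log2 fold changes of -0.30 for mmu_piR_006156, 2.34 for mmu_piR_015141 and -2.25 for mmu_piR_025444, against 0.83, 1.68 and -1.72 without it. Its part in the differences between NHS and Con was not tested.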

How the results depend on the processing

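For F2 NHS against F0 NHS the number of members called stayed at 0 in each direction under every alternative run, with smallest adjusted p of 0.127 (DESeq2, mmu_piR_030109). Signs held in 184 of 189 fits of single members, a count that carries little. Many of these fits leave out a control library, which hardly enters the change from F0 NHS to F2 NHS. Most share the 1 complete F2 NHS library, and some are of members that passed the filter through F0 Con. mmu_piR_006156 reversed to -0.30 with a term for libraries above 1000 TPM of novel_mir1, chosen after seeing the data, and DESeq2 gave it no p. The early-listed mmu_piR_030109 reversed to -0.22 with the replicate block, -0.09 and -0.53 without F0 NHS replicate 1 and 2, and -1.15 without F2 NHS replicate 2, its lowest value over libraries left out, the highest being 1.06. The median log2 fold change of the 10 members tested, a set not free of the choice, was -1.54, and -1.25 with the replicate block. It ranged from -1.65 to -0.92 over libraries left out. With the filter on NHS libraries alone it was -1.43 over 5 members, 3 of them negative and 2 positive. The block moved mmu_piR_025521 to -1.48. The block moved no count of calls; same-numbered libraries correlated at -0.22 to 0.19 and 0 of 12 best with their own number, so the numbers do not pair. Library totals in place of TMM moved the median of all known piRNAs from -0.15 to 0.02. Over all known piRNAs, 4 fell and 16 rose without the filter, 4 fell with NHS libraries alone, 21 fell and 8 rose with DESeq2, and 0 to 1 rose and 0 fell over libraries left out. Of early-listed ones, 7 fell and 17 rose without the filter, 14 and 32 with DESeq2, and 0 to 4 fell and 0 to 2 rose over libraries left out. 

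The rule was met by 4 to 24 piRNAs over control libraries left out, and by 92 after rescaling to known piRNA reads, 9 members among them. As a share of known piRNA reads the members' sum in F0 NHS was 8.12% of F0 Con. Over F0 libraries left out, chosen after seeing the data, that sum ranged from 14.2% to 26.9%, the members' median from 13% to 31.0%, and members at 25% or less from 3 to 10 and at 50% or more from 0 to 3, the extremes without F0 Con replicate 3 for the high percentages. The cause was not tested.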

Other observations

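With the same limits turned to the other generations, 93 known piRNAs had an F1 Con mean at least 4 times that of F0 Con and F2 Con, and 25 an F2 Con mean at least 4 times that of F0 Con and F1 Con. In the opposite direction from the 11, 211 had F1 Con and F2 Con means that were both at least 2 TPM and at least 4 times the F0 Con mean. These counts are in TPM, and known piRNAs took a smaller share of reads in F0 Con than in the later controls. After rescaling to known piRNA reads, 92 met the rule that chose the 11. The counts of 93, 25 and 211 were not recomputed that way, so nothing is read from their imbalance with the 11. Above the limit of 20 TPM over the controls, 4 more known piRNAs had an F0 Con mean at least 4 times that of both later controls. Among these mmu_piR_000619 stood at 3.92 TPM in F0 NHS, against 119 TPM in F0 Con, and mmu_piR_000219 at 15.6 TPM in F0 NHS, against 82.8 TPM in F0 Con.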
